A study of Mus musculus with 27 samples.

Results

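Mature microRNAs (miRNAs) of mouse hippocampus were compared between ovariectomized mice given xanthohumol (OVX Xmo, 3 libraries) and sham-operated mice given saline (sham saline, 3 libraries). The members are all 1387 mature miRNAs of the deposited miRNA table, read through its read count columns, and 605 of them held enough reads to be tested. The 6 libraries belong to a series of 27, of which 12 measured miRNAs and 15 measured mRNA, in a design that crossed surgery with treatment. All mice were of the outbred ICR strain. Sham saline animals had a sham operation and saline, and OVX Xmo animals had their ovaries removed and received xanthohumol, a prenylated flavonoid of hops. The compared groups therefore differ in surgery and in treatment at once, and the parts of surgery and treatment cannot be told apart within this comparison. The other miRNA groups, sham-operated mice given xanthohumol (sham Xmo) and ovariectomized mice given saline (OVX saline), with 3 libraries each, entered the fit for the estimate of spread and are given beside results as reference levels. Dose, duration and age are not given in the sources used here, nor whether a library came from 1 animal or a pool, so p-values measure the spread between these libraries only.

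A miRNA is cut from a hairpin precursor, and the strand loaded into an Argonaute protein guides it to messenger RNAs that pair with the seed, the bases near the 5′ end of the miRNA. The 5p and 3p products of a hairpin come from its opposite arms, and usually only one of them accumulates to a high level. In hippocampus, miR-124 and miR-9 mark neurons and neural cells, miR-219a marks oligodendrocytes, and miR-134 and miR-132 are known for their work in dendrites and synapses.

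Sequences are shown here 5′ to 3′ as the deposited table gives them, with the seed (bases 2 to 8) in capitals. The first set holds miR-412-5p, which was lower, and miRNAs of smallest p among those that missed the threshold. The miR-135 pair, the miR-200 family and the pair of miR-211-5p and miR-204-5p follow because they share seeds.
miR-412-5p: uGGUCGACcagcuggaaaguaau
let-7f-2-3p: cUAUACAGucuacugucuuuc
miR-3082-3p: cACAUGGCacucaacucugcag
let-7a-2-3p: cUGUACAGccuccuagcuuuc
miR-3099-5p: cCAGCUUCcuuccagcccuug
miR-539-5p: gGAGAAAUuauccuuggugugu
miR-700-3p: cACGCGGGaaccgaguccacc
miR-532-3p: cCUCCCACacccaaggcuugca
miR-491-5p: aGUGGGGAacccuuccaugagg
miR-135a-5p: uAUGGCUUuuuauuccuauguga
miR-135b-5p: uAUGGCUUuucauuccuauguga
miR-200a-3p: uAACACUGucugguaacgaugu
miR-141-3p: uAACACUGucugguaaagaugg
miR-200b-3p: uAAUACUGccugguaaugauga
miR-200c-3p: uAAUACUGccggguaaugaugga
miR-429-3p: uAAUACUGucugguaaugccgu
miR-211-5p: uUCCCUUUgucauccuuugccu
miR-204-5p: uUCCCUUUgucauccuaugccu
Of the 1387 names, 1179 were matched in the RefSeq table of build GRCm38.p6, and all 1179 had the same sequence there.

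The 6 compared libraries held between 9863737 and 10566207 miRNA reads. Levels are given as CPM, the reads per 1e+06 reads of the library after scaling by the trimmed mean of M-values, which is a share of the library. The most abundant miRNAs were miR-26a-5p at 102854 ± 9073 CPM in the sham saline group and 103093 ± 1714 in OVX Xmo (mean ± SD of 3 libraries a group), miR-9b-3p at 99997 ± 7785 and 106319 ± 8013, and miR-124-3p at 87219 ± 1813 and 83356 ± 9459. They were followed by let-7c-5p at 69325 ± 13946 and 59996 ± 9407 CPM and miR-99a-5p at 56994 ± 4410 and 52576 ± 2685 CPM. miR-124-3p, the neuronal marker among them, was thus abundant in all 6 libraries. The libraries were not alike in miRNAs of the choroid plexus, the epithelium of the ventricles beside the hippocampus. miR-204-5p was at 17365, 9594 and 21214 CPM in sham saline 1 to 3 and at 50704, 17097 and 8589 in OVX Xmo 1 to 3, so OVX Xmo 1 stood above the others. In bulk tissue, fewer cells of a type and less RNA per cell cannot be told apart.

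A miRNA was called at an adjusted p under 0.05 in edgeR's quasi-likelihood test with Benjamini-Hochberg adjustment over all 605. It called 2 miRNAs (0.331%): miR-122-5p was higher and miR-412-5p was lower in OVX Xmo. At an unadjusted p under 0.05 there were 34, of which 17 were higher and 17 lower. The 3 libraries of one group lay outside the range of the other for 70 miRNAs (11.6%), with 28 higher (4.63%) and 42 lower (6.94%) in OVX Xmo. By the sign of the fold change 293 were higher (48.4%) and 312 lower, and the median log2 fold change was -0.01. The median size of the log2 fold change, whatever its sign, was 0.18, and it was above 1 for 12 miRNAs.

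**Figure D1:**
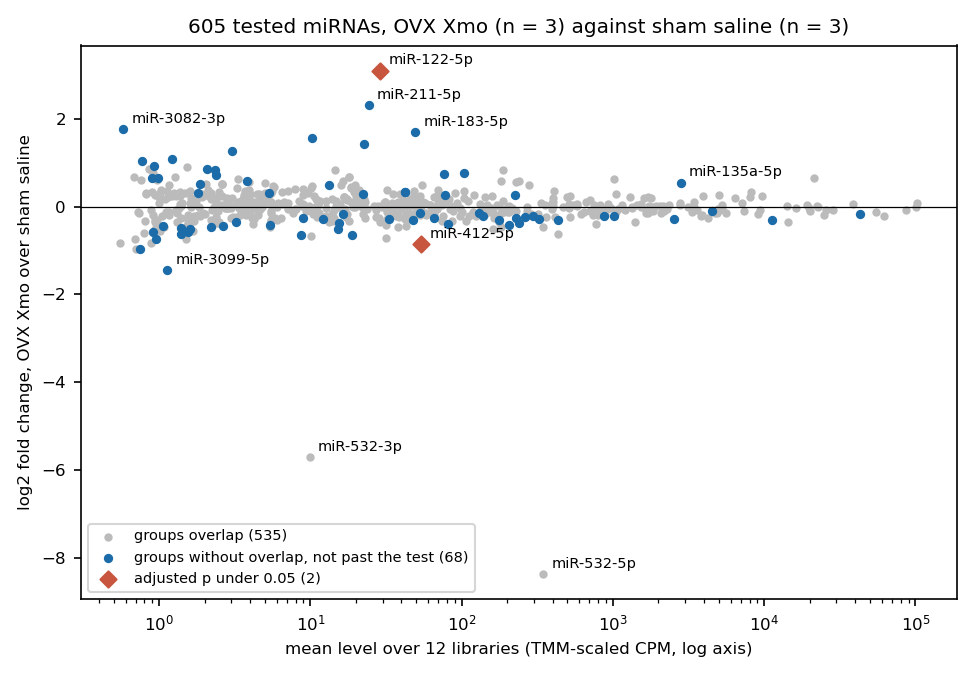
Log2 fold change of OVX Xmo over sham saline (vertical axis) against the mean level over 12 libraries in CPM (log axis) for 605 miRNAs. The 2 diamonds are miR-122-5p and miR-412-5p; the 68 blue points had groups without overlap but did not pass; miR-532-5p and miR-532-3p lie far below the rest while their groups overlap.

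miR-122-5p, the miRNA that makes up most of the miRNA of liver, was at 7.80, 8.45 and 8.21 CPM in sham saline 1 to 3 and at 29.4, 107 and 73.9 in OVX Xmo 1 to 3. Every OVX Xmo library was above every sham saline library, and the OVX Xmo libraries differed widely among themselves. The means were 8.16 ± 0.328 and 70.1 ± 38.9 CPM (mean ± SD over 3 libraries a group), a log2 fold change of 3.10 (SE 0.37, 95% confidence interval 2.24 to 3.96, adjusted p = 0.00261 in edgeR). It passed in 15 of 16 alternative settings; in a fit to the 2 groups only, its log2 fold change was 3.12 and its adjusted p in edgeR was 0.129. Behind these levels were 80, 84 and 86 reads in sham saline and 300, 1087 and 739 reads in OVX Xmo. The reference groups held 32.6, 32.9 and 26.8 CPM in sham Xmo and 6.83, 6.40 and 7.70 CPM in OVX saline. Both saline groups were below both xanthohumol groups. The edgeR fit, in comparisons that share these libraries, gave log2 fold changes of 3.33 for OVX Xmo over OVX saline (adjusted p = 0.00148) and 1.91 for sham Xmo over sham saline (adjusted p = 0.0716).

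The other arm of the same hairpin, miR-122-3p, did not follow. It was counted with 0.976, 2.11 and 1.34 CPM in the sham saline group and 0.881, 2.46 and 0.800 CPM in OVX Xmo, groups that overlap, with a log2 fold change of -0.09 (SE 0.50, adjusted p = 0.991 in edgeR). The log2 ratio of 5p to 3p reads (0.5 added to each) for mir-122 was 2.94, 1.97 and 2.58 in sham saline and 4.98, 5.41 and 6.44 in OVX Xmo. This was a difference of 3.12 (SE 0.43, adjusted p = 0.00382 in limma), and mir-122 was the 1 hairpin called of 189 whose arms could both be tested (0.529%), while the ratios of the groups did not overlap for 18 of the 189 (9.52%). Liver mRNAs were read in the separate mRNA libraries of the series, from a list chosen after the miRNA values were seen. Of Alb, Apoa1, Apob, Fgb, Serpina1b and Cyp2e1, the highest value in any of the 15 mRNA libraries was 0.531 unscaled CPM, that of Apoa1 in sham Xmo 4, and Fgb was at 0 in all of them. The labels tie no mRNA library to a miRNA library, so a part of liver or blood RNA in miR-122-5p was not tested. miR-451a, the red blood cell miRNA, was at 8161, 6043 and 7478 CPM in the sham saline group and 10406, 8969 and 8090 in OVX Xmo, which overlap (log2 fold change 0.34, SE 0.27, adjusted p = 0.953 in edgeR). Of the 6 erythroid miRNAs 4 were higher (median log2 fold change 0.34), none was called or had an unadjusted p under 0.05 in edgeR, and 2 were higher without overlap of groups, beside 4.63% of all miRNAs. One of these was miR-144-3p, made from the same transcript as miR-451a, at 42.0, 70.6 and 101 CPM in the sham saline group and 107, 137 and 122 CPM in OVX Xmo (log2 fold change 0.77, SE 0.35, adjusted p = 0.820 in edgeR). The other, miR-486a-5p, was at 43.3, 34.0 and 27.8 CPM against 43.7, 46.0 and 43.5 CPM. The summed level of the 6 was 6170 to 8270 CPM in the sham saline group and 8278 to 10581 CPM in OVX Xmo, ranges that do not overlap and nearly meet. None of the 6 was at 0.

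miR-412-5p is made from the large imprinted miRNA cluster between Dlk1 and Dio3, expressed from the maternal chromosome, and lies within the RNA gene Mirg (GRCm38.p6, chr12:109743303-109743325, plus strand). It was at 74.1, 75.4 and 62.1 CPM in the sham saline group and 46.7, 33.2 and 37.7 CPM in OVX Xmo. Every OVX Xmo library was below every sham saline library. The means were 70.5 ± 7.35 and 39.2 ± 6.85 CPM, and the log2 fold change was -0.85 (SE 0.14, adjusted p = 0.0315 in edgeR). It passed in 7 of 16 alternative settings, with adjusted p-values from 7.28e-05 to 0.332. It did not pass without OVX Xmo 2 (adjusted p = 0.332), OVX Xmo 3 (0.248), sham saline 1 (0.278), sham saline 2 (0.188) or sham saline 3 (0.0516). Levels were 39.7, 41.3 and 38.2 CPM in sham Xmo and 66.4, 66.6 and 67.6 CPM in OVX saline, so the xanthohumol groups were the low ones. For its other arm, miR-412-3p, libraries were at 33.9, 32.5 and 33.2 CPM in the sham saline group and 33.2, 23.3 and 18.5 CPM in OVX Xmo. There OVX Xmo 1 lay within the sham saline range, and the log2 fold change was -0.41 (SE 0.18, adjusted p = 0.820 in edgeR).

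Among the 88 tested miRNAs of the Dlk1-Dio3 cluster, miR-412-5p was the only call, 33 were higher and 55 lower, and the median log2 fold change was -0.06 beside -0.01 over all miRNAs. Groups without overlap were 10 lower and 1 higher of the 88, beside 6.94% lower and 4.63% higher over all miRNAs. miR-539-5p, which lies in the cluster (GRCm38.p6, chr12:109728136-109728157, plus strand), was at 20.4, 22.8 and 21.9 CPM in the sham saline group and 16.6, 13.2 and 12.1 CPM in OVX Xmo (log2 fold change -0.63, SE 0.19, adjusted p = 0.531 in edgeR). Its other arm, miR-539-3p, was the 1 member with groups apart in the upward direction, at 1.75 ± 1.33 and 4.27 ± 1.51 CPM (log2 fold change 1.28, SE 0.64, adjusted p = 0.831 in edgeR). The log2 ratio of the mir-539 arms accordingly went from 3.99 ± 1.40 to 1.74 ± 0.547, a difference of -2.25 (SE 0.73, adjusted p = 0.483 in limma). None of these passed. The cluster's summed level was 64247 to 66075 CPM in the sham saline group and 60002 to 64651 CPM in OVX Xmo. Meg3, the RNA gene at the start of the cluster, was at 5012 ± 775 CPM in sham saline (n = 3) and 4718 ± 591 in OVX Xmo (n = 4) of the mRNA libraries (log2 fold change -0.09, SE 0.13, adjusted p = 0.767 in edgeR).

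The 5 higher miRNAs of smallest p that did not pass had groups without overlap. miR-135a-5p, which is known to act in serotonergic signaling and in neurons, was the abundant one. It was at 2369, 2318 and 2323 CPM in the sham saline group and 3500, 3781 and 2967 in OVX Xmo. All sham saline libraries lay within a narrow range below all OVX Xmo libraries, and the log2 fold change was 0.55 (SE 0.13, adjusted p = 0.204 in edgeR). Sham Xmo held 2605, 3256 and 3541 CPM and OVX saline 2430, 2452 and 2049 CPM. Its seed relative miR-135b-5p was at 384, 313 and 717 CPM in the sham saline group and 579, 541 and 566 in OVX Xmo, which overlap through sham saline 3. Summed over both, the AUGGCUU family was at 2784 ± 180 and 4021 ± 447 CPM (log2 fold change 0.53, SE 0.14, adjusted p = 0.257 in edgeR).

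let-7f-2-3p, a passenger product of the let-7 family, was at 0.585, 0.805 and 0.860 CPM in the sham saline group and 1.37, 1.87 and 1.60 CPM in OVX Xmo (log2 fold change 1.09, SE 0.26, adjusted p = 0.204 in edgeR). let-7a-2-3p was at 2.73, 2.82 and 2.67 CPM and 3.62, 4.43 and 4.30 CPM in the same order (log2 fold change 0.58, SE 0.19, adjusted p = 0.546 in edgeR). In reads, let-7f-2-3p had 6, 8 and 9 in sham saline, 15, 14 and 15 in sham Xmo and 10, 14 and 9 in OVX saline. let-7a-2-3p had 28 in each sham saline library, 32, 42 and 44 in sham Xmo and 43, 49 and 48 in OVX saline. For let-7a-2-3p sham saline was thus below both reference groups as well. Both let-7 products were low-level miRNAs, and neither passed. miR-3082-3p was lower still, at 0.390, 0.101 and 0.287 CPM against 0.783, 0.984 and 1.00 CPM (log2 fold change 1.77, SE 0.44, adjusted p = 0.204 in edgeR). For its partner miR-3082-5p, means were 1.63 ± 0.284 and 1.72 ± 0.623 CPM, and the log2 ratio of the mir-3082 arms differed by -1.75 (SE 0.55, adjusted p = 0.483 in limma). miR-200a-3p, an epithelial miRNA that acts on Zeb transcription factors, was at 44.7, 41.9 and 62.6 CPM in the sham saline group and 85.3, 75 and 90.3 CPM in OVX Xmo (log2 fold change 0.75, SE 0.22, adjusted p = 0.531 in edgeR). OVX saline held 62.4, 88.7 and 110 CPM and sham Xmo 97.1, 71.7 and 83.6 CPM, so sham saline was the group of lowest mean.

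The tested members of the let-7 family, which holds back growth and stem cell genes, split by arm. All 8 tested 3p products had a positive log2 fold change (median 0.63, range 0.22 to 1.09), and 3 had groups without overlap, beside 4.63% higher without overlap over all miRNAs. A further 3p product with too few reads to be tested, let-7g-3p, went the other way. It had 6, 7 and 7 reads in sham saline and 3, 3 and 2 reads in OVX Xmo. The untested let-7b-3p and let-7f-1-3p had at most 2 reads in any library. Of the 9 tested 5p products 3 were positive (median -0.03, range -0.36 to 0.01), and none had groups apart. let-7k, named without an arm, was at a log2 fold change of -0.72. let-7a-5p, after let-7c-5p the most abundant member, was at 28110 ± 4079 and 24814 ± 6113 CPM. The mean levels of the tested 3p products were 1.22 to 189 CPM and those of the tested 5p products 1723 to 62187 CPM. This division was noticed in the values, no member passed, and it was not tested as a group. Over all tested miRNAs the 302 named 3p had a median log2 fold change of -0.01 with 144 higher, and the 288 named 5p had a median of 0.00 with 142 higher.

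Of the 5 lower miRNAs of smallest p that did not pass, miR-3099-5p was at 1.37, 1.11 and 1.62 CPM in the sham saline group and 0.685, 0.295 and 0.50 CPM in OVX Xmo. The groups did not overlap, and the log2 fold change was -1.45 (SE 0.31, adjusted p = 0.137 in edgeR). Its partner miR-3099-3p, at 17.9 ± 2.45 and 15.3 ± 1.97 CPM, overlapped. The mir-3099 arm ratio differed by -1.21 on the log2 scale (SE 0.33, adjusted p = 0.405 in limma), and without OVX Xmo 1 it passed at -1.57 (adjusted p = 0.0326 in limma). The fifth hairpin by p, mir-7080, had a log2 arm ratio of -2.49 ± 0.118 in sham saline and -1.77 ± 0.349 in OVX Xmo, a difference of 0.72 (SE 0.25, adjusted p = 0.544 in limma). miR-700-3p, within Rcan3, was at 101, 84.0 and 88.6 CPM in the sham saline group and 71.4, 64.5 and 73.6 CPM in OVX Xmo (log2 fold change -0.38, SE 0.12, adjusted p = 0.546 in edgeR). miR-491-5p, within Focad, was at 44.9, 49.8 and 39.1 CPM against 39.3, 29.0 and 28.5 CPM, and these overlap through sham saline 3 and OVX Xmo 1 (log2 fold change -0.47, SE 0.16, adjusted p = 0.656 in edgeR).

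**Figure D2:**
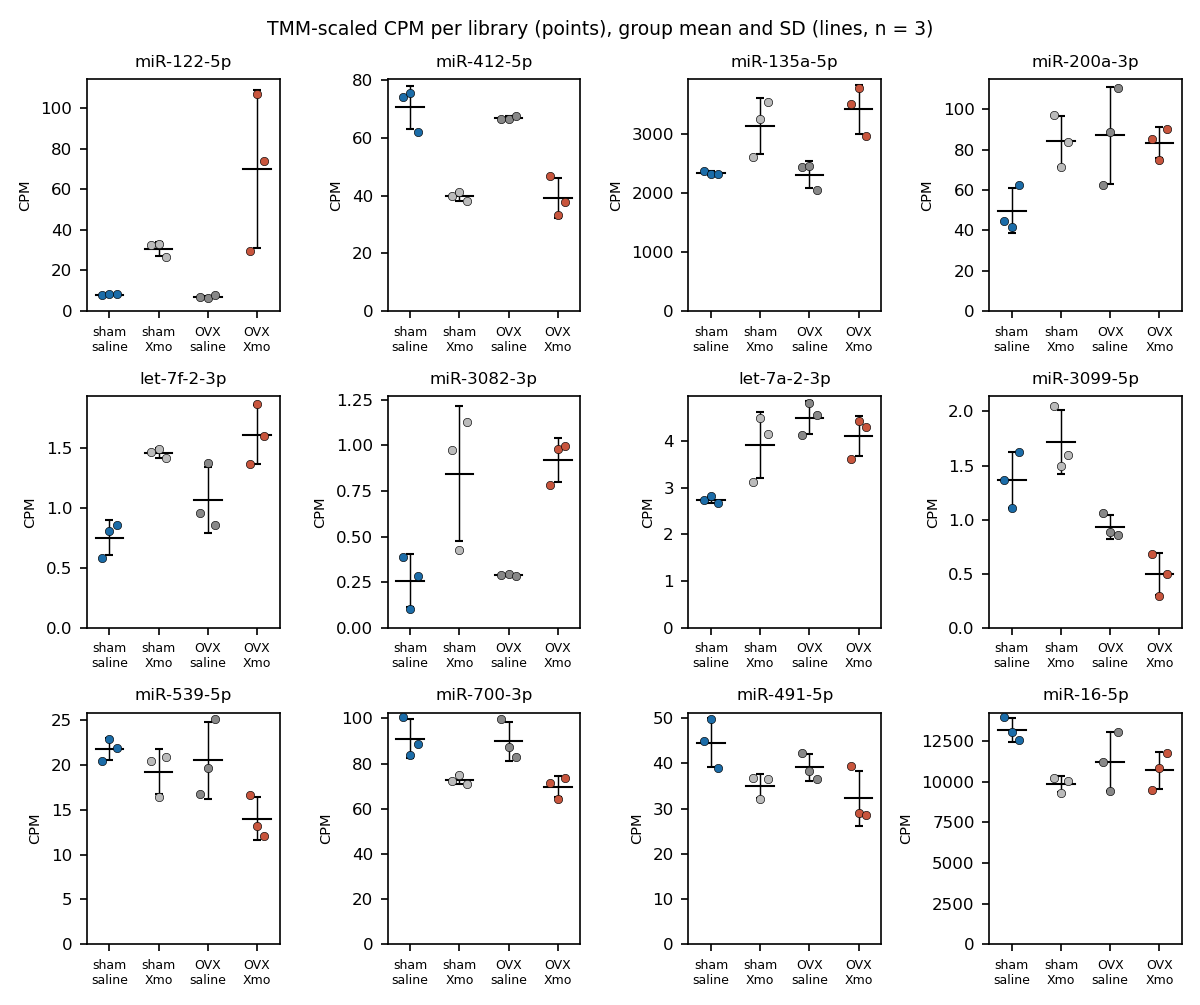
CPM (vertical axes, linear, from 0) of 12 miRNAs in each of 12 libraries, by group, with the group mean and SD (n = 3). miR-122-5p stood at 29.4 to 107 CPM in OVX Xmo above 7.80 to 8.45 in sham saline, and miR-412-5p at 33.2 to 46.7 below 62.1 to 75.4.

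miR-532-3p, from the X-linked cluster inside Clcn5, belongs to the same 5 and needs its reads shown one by one. It had 278, 158 and 2 reads in sham saline 1 to 3 and 2, 3 and 3 reads in OVX Xmo 1 to 3. Sham saline 3 was thus as low as OVX Xmo. The log2 fold change was -5.71 with an SE of 1.95, and the miRNA did not pass (adjusted p = 0.656 in edgeR). In sham Xmo it had 241, 2 and 2 reads, and in OVX saline 166, 234 and 122 reads.

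The deposited table holds a second whole-number value per library, named exp, that is equal to or below the read count in all but 1 of 16644 values. That 1 value is miR-532-3p in sham saline 3, with 2 reads and an exp value of 241, while sham Xmo 1 has 241 reads and an exp value of 2. The 2 columns thus hold these values the other way round. In the authors' deposited table the mean exp of sham saline for miR-532-3p is 145.667, which is the mean with 2 in sham saline 3 (145.667) and not that of the exp columns (225.3). Likewise the log2 fold change in the authors' deposited table is -5.77, the value with 2 in sham saline 3, where the exp columns give -6.40. It is the 1 exception among 1068 fold changes, since the other 1067 were within 0.01 of the ratio of mean exp values. Fitted on the exp columns, miR-532-3p passed (log2 fold change -6.32, SE 0.38, adjusted p = 2.37e-06 in edgeR). Fitted on the exp columns with the 2 values exchanged, it did not (log2 fold change -5.69, SE 1.97, adjusted p = 0.510 in edgeR). Which library held 241 reads was not settled here, and the result for miR-532-3p turns on it. The authors' deposited table gives this miRNA p = 0.00393 and q = 0.556.

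The other arm, miR-532-5p, had 14, 13 and 15124 reads in sham saline and 12, 24 and 8 reads in OVX Xmo. Sham saline 3 was far above all others of these 6 libraries. It also had 11577, 31 and 7 reads in sham Xmo and 16380, 22 and 29 reads in OVX saline, so 1 library of each of these groups was high. The log2 fold change was -8.37 (SE 3.83, adjusted p = 0.820 in edgeR), and without sham saline 3 it was 0.11. Of the 8 tested miRNAs of the cluster none was called, 5 were higher and 3 lower, and miR-501-3p was at 72.5 ± 4.93 and 74.9 ± 16.5 CPM. Clcn5 was at 14.4 ± 0.999 CPM in the sham saline group and 12 ± 4.41 CPM in OVX Xmo of the mRNA libraries (log2 fold change -0.26, SE 0.26, adjusted p = 0.633 in edgeR). Mpped1, a gene the submitters studied beside miR-532-3p, was at 114, 37.9 and 42.2 CPM in the sham saline group and 157, 88.0, 167 and 142 CPM in OVX Xmo. Sham saline 1 lay within the OVX Xmo range, and the log2 fold change was 1.10 (SE 0.51, adjusted p = 0.262 in edgeR).

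**Figure D3:**
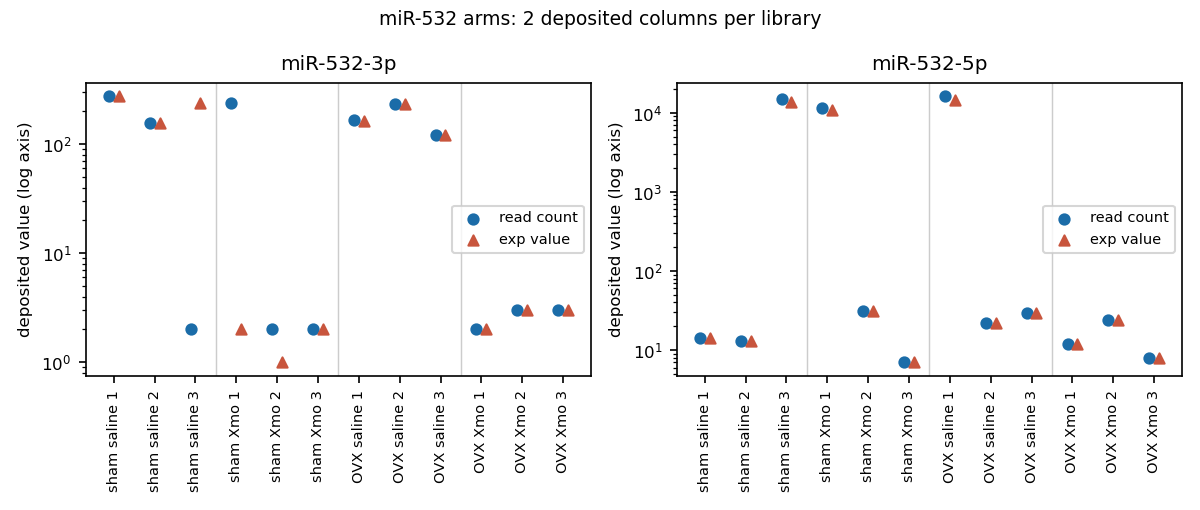
Deposited read counts (circles) and exp values (triangles) of miR-532-3p and miR-532-5p on a log axis, in 12 libraries. For miR-532-3p the circles and triangles trade places between sham saline 3 and sham Xmo 1, at 2 and 241.

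Further miRNAs were near absent in some libraries and present in others of the same group, and those given here were chosen after their values were seen, for that spread. miR-744-5p had 3635, 3848 and 34 reads in sham saline and 3713, 3162 and 45 reads in OVX Xmo. miR-297c-5p had 620, 669 and 572 reads in sham saline and 728, 0 and 639 reads in OVX Xmo. miR-669c-5p had 155, 234 and 177 reads against 0, 185 and 170 reads. The low library was not the same one each time, being OVX Xmo 3, OVX Xmo 2 and OVX Xmo 1. miR-221-5p had 450, 819 and 152 reads in sham saline and 13, 729 and 661 reads in OVX Xmo. None of these was called.

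Of the 20 tested choroid plexus, ependymal and epithelial miRNAs, 15 were higher and 5 lower, beside 48.4% higher over all miRNAs. None was called by edgeR, DESeq2 or limma-voom, 5 had an unadjusted p under 0.05, and 6 had groups without overlap, all of them higher in OVX Xmo, beside 4.63% over all miRNAs. Apart from miR-204-5p, miR-34b-3p and miR-200a-3p, the members named next were chosen after their values were seen. Over all 20 tested members of the list the median log2 fold change was 0.62, beside -0.01 over all miRNAs. The list median was 0.37 to 0.82 over the settings. miR-211-5p, which shares its seed with miR-204-5p, is made within Trpm1 and is best known from pigment cells, was at 7.22, 10.7 and 7.74 CPM in the sham saline group and 68.0, 42.1 and 17.1 CPM in OVX Xmo (log2 fold change 2.31, SE 0.74, adjusted p = 0.546 in edgeR). Among the OVX Xmo libraries the ranking was the same for miR-204-5p, the miRNA most abundant in the choroid plexus. OVX saline 3 and sham Xmo 3, with 35.9 and 50.3 CPM of miR-211-5p, also held 50539 and 43288 CPM of miR-204-5p. The libraries sham Xmo 1 and 2 held 164 and 199 reads of miR-211-5p beside 79258 and 104064 of miR-204-5p. OVX saline 1 and 2 held 47 and 99 beside 100616 and 83342. Sham saline 1 to 3 held 74, 106 and 81 beside 177996, 95324 and 222099. In sham Xmo 1 and 2 miR-211-5p thus lay above the sham saline range, while miR-204-5p did not. In sham saline the order was not shared: miR-204-5p was highest in sham saline 3 and miR-211-5p in sham saline 2.

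The cluster of miR-183, miR-96 and miR-182, known from sensory epithelia, retina and the pineal gland, was higher in OVX Xmo in all 3 members without overlap of groups. Over all miRNAs 4.63% were higher without overlap, and the 3 members were already counted in the epithelial list. miR-183-5p was at 20.6, 11.2 and 13.8 CPM in the sham saline group and 66.0, 42.2 and 39.1 CPM in OVX Xmo (log2 fold change 1.69, SE 0.63, adjusted p = 0.739 in edgeR). miR-96-5p was at 4.59, 1.81 and 3.53 CPM against 14.2, 5.80 and 9.30 CPM (log2 fold change 1.56, SE 0.73, adjusted p = 0.831 in edgeR). miR-182-5p was at 13.1, 6.64 and 4.30 CPM against 20.6, 14.7 and 29.9 CPM (log2 fold change 1.44, SE 0.64, adjusted p = 0.820 in edgeR). They are cut from one transcript, so they are not independent of each other, and none passed. miR-183-5p was highest in OVX saline 3, at 205 CPM, and the OVX saline group spread from 28.6 to 205 CPM. Sham Xmo held 492, 253 and 531 reads of it, and sham saline 211, 111 and 144. Sham saline was thus the lowest group for miR-183-5p, below all libraries of the others. In the cluster of miR-200a, miR-200b and miR-429 all 5 tested products were higher, 2 of them without overlap. Beside them, 48.4% of all miRNAs were higher and 4.63% were higher without overlap. The 5 products were already counted in the epithelial list. miR-429-3p was at 149, 109 and 244 CPM in the sham saline group and 244, 235 and 263 CPM in OVX Xmo (log2 fold change 0.56, SE 0.28, adjusted p = 0.831 in edgeR), and sham saline 3 reached the OVX Xmo range.

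Other choroid plexus and ependymal miRNAs varied by library and overlapped. miR-34b-3p, known from ciliated cells, was at 200 ± 45.8 and 303 ± 232 CPM. It was the 1 higher member of the 6 tested in the miR-34 and miR-449 family, where 5 were lower. miR-34c-5p had the lowest log2 fold change of the epithelial list, at -0.46. miR-448-3p, made within the serotonin receptor gene Htr2c, was at 25.5, 1.71 and 26.7 CPM in the sham saline group and 49.0, 23.2 and 4.10 CPM in OVX Xmo. miR-1298-5p, from the same gene, was at 1252, 128 and 1062 CPM against 2526, 952 and 280 CPM. Each group therefore held libraries of high and of low level. The summed level of the epithelial list was 10440 to 22443 CPM in the sham saline group and 9535 to 52340 CPM in OVX Xmo, and miR-204-5p made up most of it. The part of choroid plexus tissue in the values of miR-211-5p and of the miR-183 and miR-200 clusters was not tested.

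**Figure D4:**
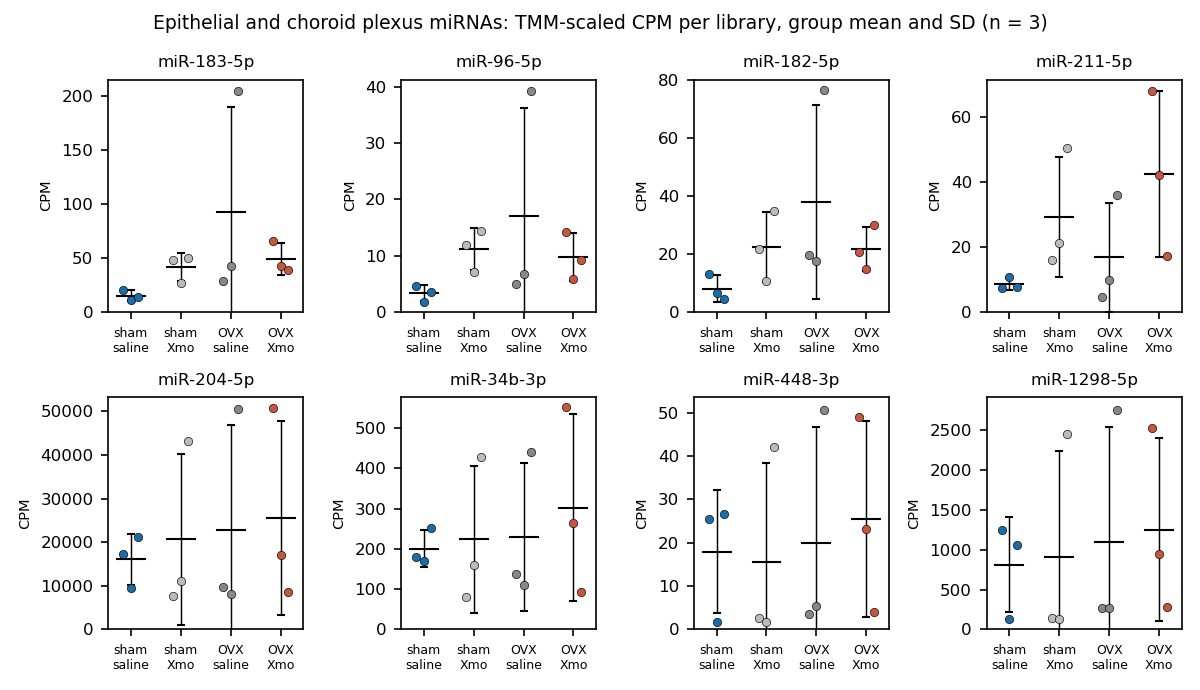
CPM (vertical axes, linear, from 0) of 8 epithelial and choroid plexus miRNAs in each of 12 libraries, with the group mean and SD (n = 3). The members of the miR-183 cluster and miR-211-5p lay higher in OVX Xmo than in sham saline without overlap, while miR-204-5p, miR-34b-3p, miR-448-3p and miR-1298-5p overlapped.

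The authors' deposited table, which gives DESeq2 values, listed q under 0.05 for 5 miRNAs of this comparison: miR-122-5p (q = 1.15e-12), miR-211-5p (1.21e-05), miR-183-5p (1.21e-05) and miR-96-5p (0.0433) as higher, and miR-412-5p (0.0433) as lower. Of these 5, miR-122-5p and miR-412-5p also passed in edgeR here, and miR-211-5p, miR-183-5p and miR-96-5p did not. The authors' fold changes followed the mean exp values, while that edgeR test used read counts, so the inputs may differ. In edgeR on the exp columns the adjusted p was 0.405 for miR-211-5p and 0.563 for miR-183-5p. DESeq2 run here on the read counts of all 12 libraries called 2, the same miR-122-5p and miR-412-5p, with an adjusted p of 0.0627 for miR-211-5p and 0.240 for miR-183-5p.

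The lists of brain cell types showed no called miRNA in edgeR, and DESeq2 and limma-voom added no call in any list. At an unadjusted p under 0.05 there was 1 neuron-enriched miRNA, miR-135a-5p, there were 2 of the synaptic plasticity list, and there was none of the oligodendrocyte, immune or vessel lists. Of 29 neuron-enriched miRNAs 13 were higher and 16 lower (median log2 fold change -0.02). miR-218-5p, abundant in neurons, was at 26084 ± 3888 CPM in the sham saline group and 24622 ± 2771 in OVX Xmo (log2 fold change -0.08, SE 0.13, adjusted p = 0.976 in edgeR). Of the 34 miRNAs studied in synaptic plasticity, 22 were higher and 12 lower (median 0.05), and miR-135a-5p had the largest positive fold change among them. Of 8 oligodendrocyte miRNAs 6 were lower (median -0.11). miR-219a-2-3p was at 2919 ± 65.8 and 2401 ± 89.1 CPM without overlap (log2 fold change -0.28, SE 0.15, adjusted p = 0.851 in edgeR), and miR-338-3p was at 1972 ± 317 and 1955 ± 247 CPM. Of 10 microglia and immune cell miRNAs 6 were higher (median 0.18), with miR-150-5p at 4054 ± 987 and 3575 ± 1113 CPM and miR-21a-5p at 2215 ± 208 and 2256 ± 260 CPM. Of 10 vessel and fibroblast miRNAs 3 were higher (median -0.06), and miR-126a-3p, the endothelial miRNA, was at 21566 ± 2656 and 20012 ± 1026 CPM, with miR-143-3p, of smooth muscle, at 4968 ± 2349 and 4154 ± 1453 CPM.

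Families and clusters of general function gave no call in edgeR either, and 1 member each of the miR-15/16, miR-17-92, miR-26 and miR-181 families had an unadjusted p under 0.05. In the miR-15/16 family, which limits the cell cycle, 4 of 11 were higher and 7 lower (median -0.09), and 4 were lower and 1 higher without overlap, beside 6.94% and 4.63% over all miRNAs. miR-16-5p was at 13989, 13039 and 12541 CPM in the sham saline group and 9479, 10856 and 11759 CPM in OVX Xmo (log2 fold change -0.30, SE 0.13, adjusted p = 0.820 in edgeR). Its groups stood apart by a small step, and miR-15a-5p did likewise at 1156 ± 78.0 and 995 ± 60.6 CPM. The 6 members of the miR-29 family, which acts on collagens and DNA methyltransferases, were all positive (median 0.16) with groups that overlapped, as in miR-29a-3p at 4522 ± 892 and 5458 ± 693 CPM and miR-29b-3p at 1628 ± 513 and 1873 ± 382 CPM. In the Sfmbt2 intron cluster 19 of 29 were higher (median 0.10), with miR-467a-5p at 394 ± 37.6 and 416 ± 45.1 CPM and miR-467e-5p at 67.5 ± 9.20 and 79.7 ± 22.2 CPM. In the miR-17-92 group 6 of 14 were higher (median -0.01), with miR-92b-3p at 2692 ± 270 and 2775 ± 179 CPM and miR-93-5p at 471 ± 56.9 and 403 ± 16.2 CPM. Of 7 miR-181 members 3 were higher (median -0.01), with miR-181a-5p at 37862 ± 2269 and 39339 ± 1448 CPM and miR-181c-5p at 2984 ± 224 and 2954 ± 228 CPM. The miR-30 family had 7 of 11 higher (median 0.08), with miR-30c-5p at 2719 ± 605 and 2880 ± 981 CPM and miR-30d-5p at 1516 ± 221 and 1761 ± 539 CPM. The miR-26 family had 4 of 5 higher (median 0.04), and its second most abundant member, miR-26b-5p, was at 1229 ± 106 and 1265 ± 224 CPM. In the miR-23/24/27 clusters 2 of 10 were higher (median -0.12), with miR-24-3p at 5057 ± 1154 and 5816 ± 355 CPM and miR-23b-3p at 5188 ± 392 and 4682 ± 292 CPM. In the miR-99, miR-100 and miR-125 families 4 of 11 were higher (median -0.06), and miR-100-5p was at 7936 ± 1099 and 7381 ± 288 CPM. The 2 groups overlapped in each of these miRNAs apart from miR-16-5p and miR-15a-5p.

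Lists that bear on ovariectomy and memory were also without calls in edgeR, and 0 of their members had an unadjusted p under 0.05. Of 11 miRNAs reported to act on the estrogen receptor Esr1, 3 were higher and 8 lower (median -0.15, and -0.18 to -0.05 over the settings). miR-22-3p was at 44417 ± 502 and 39531 ± 1436 CPM with groups apart (log2 fold change -0.17, SE 0.09, adjusted p = 0.871 in edgeR), and with the exp columns its log2 fold change was 0.12. miR-222-3p was at 2254 ± 598 and 2036 ± 89.7 CPM. Of 18 miRNAs reported altered in Alzheimer disease, 8 were higher and 10 lower (median -0.06), with miR-9-5p at 20149 ± 2337 and 20770 ± 956 CPM and miR-9-3p at 9348 ± 1903 and 8823 ± 1175 CPM. Of 6 neuroendocrine miRNAs 1 was higher (median -0.08), with miR-7a-5p at 5313 ± 1588 and 4821 ± 217 CPM and miR-7b-5p at 3528 ± 1533 and 3500 ± 366 CPM.

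The remaining lists were small, and none held a call in edgeR or a member at an unadjusted p under 0.05. Of 5 muscle miRNAs 2 were higher (median -0.14), with miR-499-5p at 74.0 ± 9.76 and 83.2 ± 13.9 CPM and miR-1a-3p at 44.6 ± 5.57 and 40.6 ± 12.4 CPM. Both Hox-locus miRNAs were higher (median 0.21), miR-10a-5p at 15.9 ± 3 and 20 ± 4.34 CPM and miR-10b-5p at 6.67 ± 3.69 and 7.08 ± 2.52 CPM. In the miR-34 and miR-449 family 1 of 6 was higher (median -0.10), and miR-34a-5p, known as a target of p53, was at 3787 ± 926 and 3464 ± 101 CPM. The miR-103 and miR-107 family had 2 of 4 higher (median -0.01), with miR-103-3p at 883 ± 118 and 778 ± 130 CPM and miR-107-5p at 18.1 ± 1.86 and 17.4 ± 2.13 CPM. The miR-130 and miR-301 family had 1 of 5 higher (median -0.18), with miR-301a-3p at 228 ± 25.6 and 223 ± 43.3 CPM and miR-130a-3p at 37.6 ± 4.54 and 33.3 ± 1.89 CPM. The miR-148 and miR-152 family had 1 of 3 higher (median -0.07), with miR-148a-3p at 34.9 ± 5.58 and 42.4 ± 9.53 CPM and miR-148b-3p at 28.4 ± 2.62 and 27.1 ± 4.04 CPM. In the miR-221 and miR-222 family none of 3 was higher (median -0.15), and miR-221-3p was at 830 ± 191 and 724 ± 34.1 CPM. The 2 groups overlapped in each miRNA named from these small lists.

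**Figure D5:**
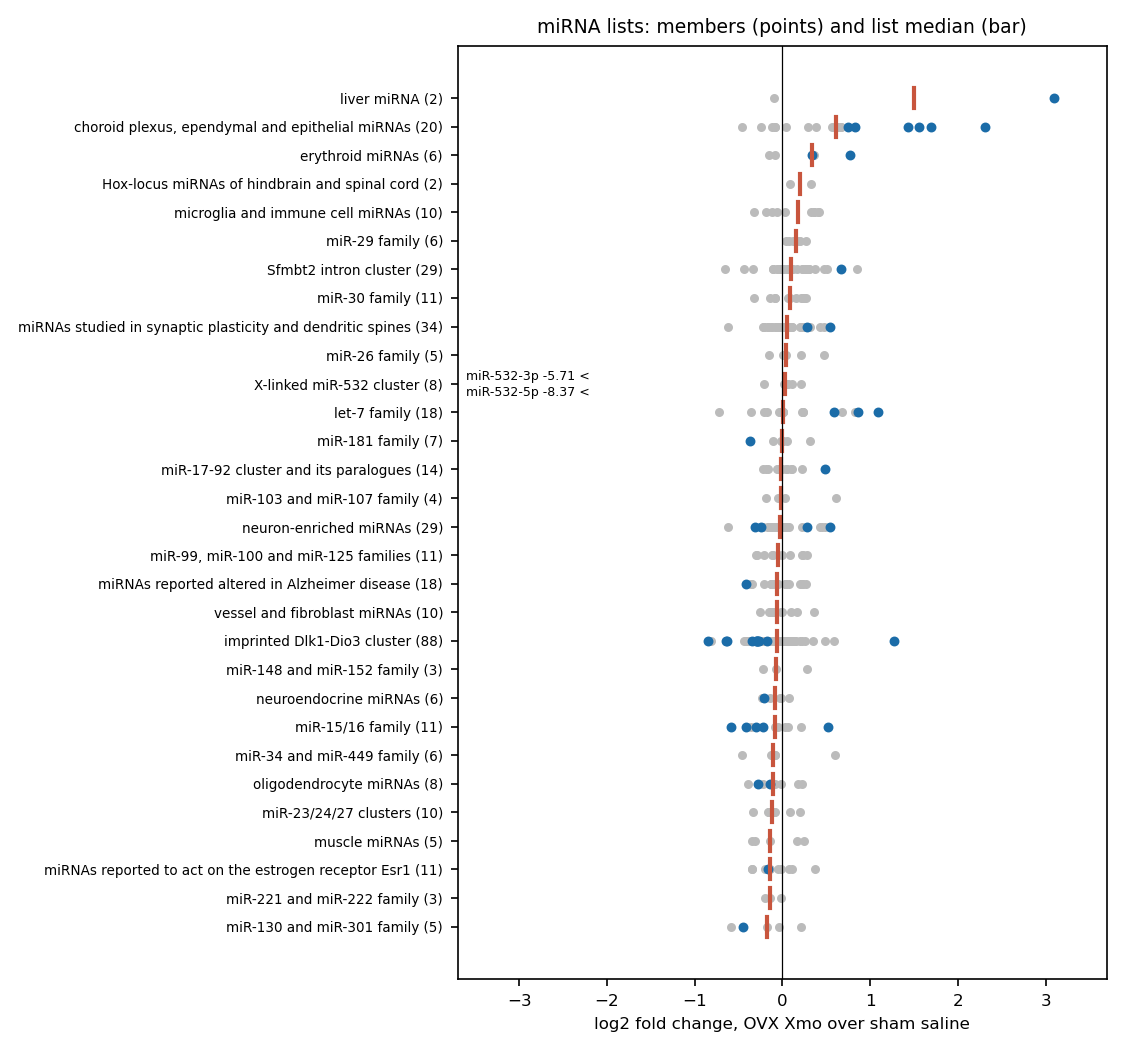
Log2 fold change of OVX Xmo over sham saline (horizontal axis) for the tested members of 30 lists, with the number tested in brackets. Grey points are members whose groups overlap, blue points those without overlap, and bars list medians; the epithelial list has its median at 0.62, and miR-532-3p and miR-532-5p lie off the scale at -5.71 and -8.37.

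Reads summed over miRNAs that share a seed gave 499 tested families, and 2 were called (0.401%), the single-member families of miR-122-5p and miR-412-5p. None of the 65 families with 2 or more tested members was called by edgeR, and DESeq2 called none of the 65 either. In edgeR 5 of the 65 had an unadjusted p under 0.05, beside 29 of all 499 families. After the miR-135 pair these were the AACACUG family of miR-141-3p and miR-200a-3p at 51.0 ± 9.43 and 87.2 ± 6.73 CPM (log2 fold change 0.77, SE 0.22, adjusted p = 0.309 in edgeR) and the AAUACUG family of miR-200b-3p, miR-200c-3p and miR-429-3p at 199 ± 67.0 and 297 ± 8.42 CPM (0.58, SE 0.26, adjusted p = 0.827). The AUCUUAC family of miR-200a-5p and miR-200b-5p had a log2 fold change of 0.81 (SE 0.35) and the GAUCUAG family of miR-344-3p and miR-344c-3p one of -0.32 (SE 0.13), and neither passed. So 3 of the 5 are seeds of the miR-200 clusters, whose members are cut from shared transcripts.

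The mRNA of host genes, in whose introns or transcripts many miRNAs lie, was read in the mRNA libraries (sham saline n = 3, OVX Xmo n = 4). Over all 19969 genes tested, edgeR called 237 (1.19%), a count that ranged from 2 to 983 when a library was left out. Of 41 tested host genes edgeR called none, while 7 had an unadjusted p under 0.05. The count of all genes at that p is not given here, so the 7 have no share to stand beside. DESeq2 called 1 of the host genes, beside 1118 of the 19969 genes. The host gene medians were a log2 fold change of -0.04 beside 0.01 over all genes. Htr2c was at 38.5 ± 15.1 and 29.9 ± 5.76 CPM, Trpm3, the host of miR-204, at 75.4 ± 13.5 and 69.3 ± 7.88 CPM, and Map2k4, the host of miR-744, at 257 ± 13.1 and 247 ± 13.7 CPM. Huwe1, in whose span let-7f-2 lies, was at 580 ± 34.7 and 551 ± 21.7 CPM. None of these 4 had groups apart. Trpm1, the host of miR-211, had too few counts to be tested. It was at 0.0338, 0.139 and 0 unscaled CPM in sham saline and 0.230, 0, 0 and 0.0738 in OVX Xmo.

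Across the 605 tested miRNAs the log2 fold change had a Spearman correlation of -0.07 with the GC share of the mature sequence, 0.10 with its length and -0.08 with the mean level. These describe miRNAs of the same libraries, which are not independent of each other.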

How the data were processed

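The labels name Trizol extraction and a TruSeq RNA kit. StringTie 1.3.3b, Bowtie2 2.3.2, FastQC 0.11.2 and Trimmomatic 0.36 stand in the submitters' processing notes beside build GRCm38.p6, with no role for any of them. The authors deposited whole-number read counts per mature miRNA and library, and gene counts for the mRNA libraries. Per the file headers the miRNA table also holds exp values (deposited whole-number counts), the authors' log2 fold changes, and the authors' DESeq2 p-values and q-values. The exp values were equal to the read count for 7216 of 7542 values from 1 to 99 reads (95.7%) and summed to 38.2% to 45.1% of the reads per library; no source used here gives their making. Another 12 value columns match no sample and were not used.

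miRNAs with few reads were removed with edgeR's filterByExpr; they held about 0.01% of the reads of each library. The tests used R 4.3.3, edgeR 4.0.16 (quasi-likelihood, TMM factors, all 4 groups, 8 residual degrees of freedom), limma 3.58.1 for arm ratios and DESeq2 1.42.0 as an alternative. The edgeR test and the limma test of arm ratios were also run on simulated data. DESeq2 and limma-voom were not. Overlap of groups was judged on CPM. Rows with an identical mature sequence (25) were counted once in lists and families. Counting error is only part of the spread. Ratios of replicate differences to counting noise showed no library deposited again as another replicate of its own group. Libraries of different groups were not compared in this way.

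Members, lists and alternatives were chosen with earlier results of these data known. Named were the miRNAs past the test without overlap (at most 12 per direction), the 5 of smallest p per direction where fewer than 3 passed, per list at most 4 members past the test or else its 2 most abundant, the 5 most abundant miRNAs, both miR-532 arms, the 5 hairpins and 5 multi-member seed families of smallest p, and host genes of named miRNAs. Other miRNAs and genes named, partner arms and seed relatives among them, were chosen after their values were seen. The alternatives were other scalings, filters and tools, the 2 groups only, the exp columns, each library left out, and a replicate block; the exp columns with the miR-532-3p values exchanged were added after seeing the data.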

Additional observations from a re-analysis of the deposited data

How the results depend on the processing

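The number of called miRNAs was 2. It was 1 with RLE size factors, 1 without a filter and 0 in the 2 groups only (24 at an unadjusted p under 0.05 in edgeR), and 1 to 2 when a library was left out. miR-122-5p was called in every setting but the 2 groups only. With the exp columns 3 were called, the third being miR-532-3p, at a log2 fold change of -6.32. miR-532-5p, at a log2 fold change of -8.37, ranged from -8.95 to 0.11 when a library was left out, with 0.11 reached without sham saline 3. Seed family calls, 2, became 1 without a filter, 0 in the 2 groups only and 1 to 2 when a library was left out. Arm ratio calls, 1, became 0 where both arms needed 10 CPM, since miR-122-3p falls below that, and 1 to 2 when a library was left out, with 2 reached without OVX Xmo 1. Host gene calls, 0, became 1 with DESeq2 (Smc4) and 0 to 4 when a library was left out, with 4 (Smc4, Aatk, Astn1 and Chm) reached without OVX Xmo 4, where 983 of all genes were called in place of 237; all-gene calls were 1118 with DESeq2, 56 without a filter, 4 in the 2 groups only and 2 with a replicate block. The cause of these changes was not tested. Of the values of single miRNAs, lists, families, hairpins and genes under alternatives, 2071 kept direction and side of the threshold or moved within the spread, 45 moved further, 10 lost the threshold (9 of miR-412-5p and 1 of miR-122-5p), 2 passed it (mir-3099 and miR-532-3p) and 1 changed sign (miR-532-5p). Of the counts of calls 32 stayed within 1.5 times and 20 did not. Abundant miRNAs moved with the exp columns, as miR-26a-5p from 0.00 to 0.28 and miR-22-3p from -0.17 to 0.12, and miR-204-5p, at 0.67, was at -0.32 without OVX Xmo 1.

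With the replicate number as a block, 1 miRNA and 1 seed family were called, miR-122-5p in both, with miR-412-5p at an adjusted p of 0.106 in edgeR. Deviations of same-numbered libraries of OVX Xmo and sham saline correlated at 0.114, 0.103 and 0.00445. Across all 4 groups, libraries of different groups had a mean correlation of -0.0412 with the same number and 0.0206 with another number. Deviations were taken from each group's mean, so the second value nearly follows from the first and is no separate evidence. The correlations were small and of either sign, and the numbers were not taken to pair the samples. With 3 libraries per group, levels near 1 CPM rest on about 10 reads.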
